A study of Caenorhabditis elegans with 2 samples.

Results

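Below the authors' threshold for reproducible LIN-35 peaks lay 525 promoter peaks that were weak in the pooled data and were overlapped in the peak list of each replicate. They were chosen by 4 criteria. The peak came after the 1000 highest and within the 3000 highest of 30000 peaks by pooled signal, it lay on an autosome, its summit stood from 1000 bp before to 300 bp past the start of a protein-coding transcript, and its interval was overlapped by at least 1 bp in both replicates' lists. Of the 2000 peaks in these ranks 1766 were autosomal, 835 of those were at promoters, and 525 of those were found in both replicates. They are called the member peaks here. The pooled list was derived from the alignments of both replicates, so overlap with the replicates' lists is not independent evidence for a peak.

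The chromatin came from whole Caenorhabditis elegans of strain YL468, mixed-sex young adults of unknown age, in 2 biological replicates of a single group. Every animal carried the unc-119(ed3) mutation and the transgene vrIs93, in which the mex-5 promoter drives LIN-35 joined to GFP and FLAG, with the lin-35 3′ UTR and a rescuing copy of unc-119. The mex-5 promoter is used in the germ line, while whole animals, soma included, gave the chromatin. The antibody is labelled lin-35 and the experiment is described as aimed at an eGFP fusion, so the epitope is not settled, and the control library was not analysed here. No member peak lay at mex-5, lin-35 or unc-119, whose sequences the transgene carries. The lists give no read counts, so the depth of either sample is unknown.

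LIN-35 is the worm's pocket protein, the relative of the retinoblastoma protein. It does not bind DNA itself but reaches promoters through E2F-DP proteins and through the DREAM complex, in which LIN-54 recognises a short element of cell cycle promoters called CHR. DREAM is best known for holding cell cycle genes silent in cells that do not divide, and in worms LIN-35 also keeps germline genes off in somatic cells. A threshold on the irreproducible discovery rate keeps peaks whose rank repeats between replicates. What lies below it mixes weak binding with background, and the deposited lists hold both.

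The E2F-type strings TTTCCCGC, TTTCGCGC, TTTGCCGC and TTTGGCGC stood more often at these summits than in the DNA beside them, as described further on. Of the 525 members, 43 held one within 100 bp of the summit. The following 8 stretches, picked partly by gene function as examples, show such strings at member peaks of cell cycle, nuclear transport and germline genes. Each is 30 bases of build WBcel235 (ce11), credited to RefSeq, read 5′ to 3′ on the strand that carries the string, which is in capitals.
rnr-2, III:4095625-4095654, plus strand: cgaattcaaatTTTGGCGCgcgttttgaaa
csc-1, II:13596779-13596808, minus strand: aatcgaaaaatTTTCGCGCtcgcattcggt
puf-3, IV:13512339-13512368, plus strand: aaaatccaaaaTTTCCCGCgcaaaaacgaa
cdl-1, II:10785244-10785273, plus strand: ctgcaattaaaTTTCCCGCaaaaatcttac
ran-1, III:10748131-10748160, minus strand: attttgttcatTTTGGCGCgcaaatctggc
rnr-1, III:9228878-9228907, plus strand: taaaacacaatTTTGCCGCgggttactgta
zyg-9, II:8456850-8456879, plus strand: cgcacagcattTTTGGCGCcaaatttcctg
mcm-5, III:4291442-4291471, plus strand: atttgaaaattTTTGGCGCccgcgcctcac
The zyg-9 stretch holds the string again on the other strand, overlapping the first. Its summit lay 692 bp from F22B5.6 and 932 bp from zyg-9, and that of the ran-1 stretch lay 265 bp from dkc-1 and 436 bp from ran-1. None of the 8 stretches lies in an annotated UTR.

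The values that chose the peaks describe how weak they were. The pooled signal, the authors' own value for each peak on a scale that is not stated, ran from 11.9 to 18.9 with a median of 14.5, and the −log10 q ran from 2.31 to 2.95. The 359 autosomal promoter peaks of the authors' thresholded list that both replicates held, called the thresholded promoter peaks here, had a median pooled signal of 36.2. Nothing in the signal set the limits apart. The last promoter peak outside the upper limit, at rank 1000, had a signal of 18.93, and the first member, at rank 1002, had 18.92. At the lower limit the last member, at rank 2997, had 11.91, and the first peak past rank 3000, which met the other criteria, had 11.90. Every member interval was 356 bp wide.

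In replicate 1 their signal ran from 3.11 to 52.2 with a median of 9.53, and in replicate 2 from 2.01 to 24.1 with a median of 4.94. The median rank was 3014 of 30000 in replicate 1 and 3612 of 18226 in replicate 2. Among the 10000 highest of each list were 447 and 436 members. Of the 525, 94 were among the 3000 highest peaks of both replicates, 14 among the 1000 highest of both and 7 among the 550 highest of both. For the thresholded promoter peaks the count among the 550 highest of both was 161 of 359. Across the 525 members the log2 signals of the replicates had a Pearson r of −0.16 and a Spearman rho of −0.21. The rule held the pooled signal within a narrow band, so these describe the chosen peaks only.

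**Figure D1:**
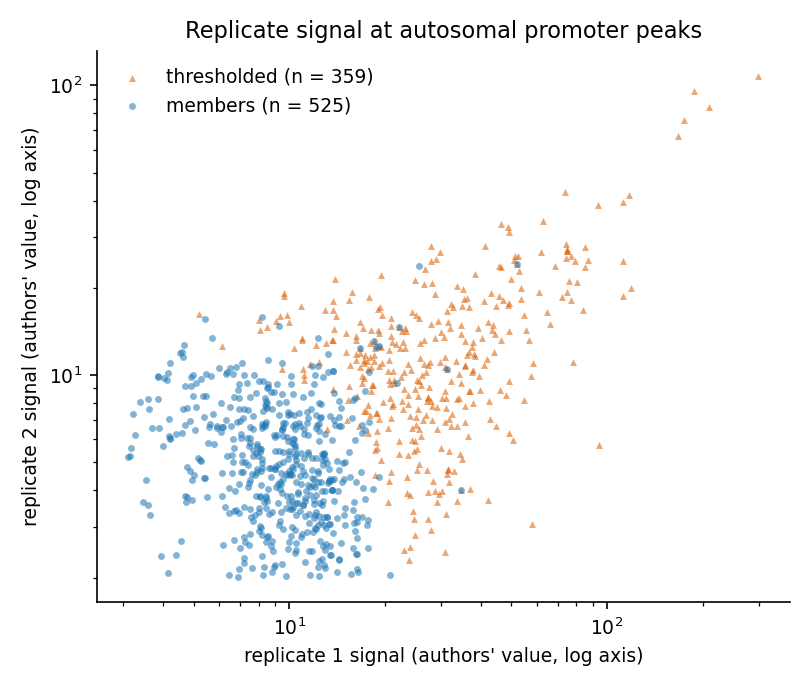
Signal of each peak in the list of replicate 1 (x axis) and of replicate 2 (y axis), the authors' values on log axes, with circles for the 525 member peaks and triangles for the 359 thresholded promoter peaks. The members sit at the lower left, with medians of 9.53 and 4.94, and a few lie among the triangles, up to 52.2 and 24.1 at hsp-1.

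Most of the few members that ranked highest in both replicates lay beside stronger peaks. High rank in a single replicate was more common, with 12 members among the 550 highest of replicate 1 and 40 among those of replicate 2. The rule asked only for an overlap of 1 bp, and 21 members had a summit within 500 bp of a pooled summit among the 1000 highest. In all 21 at least 1 of the replicate peaks counted here also overlapped a pooled peak among those 1000. The clearest was the peak upstream of hsp-1, an HSP70 chaperone gene (IV:17278567-17278922). Its pooled signal was 12.8, its replicate values were 52.2 and 24.1, and a stronger summit stood 201 bp away. Among the 10 members with the best worse-of-both rank in the replicates, 8 stood 199 to 240 bp from such a summit, among them those at hsp-1, egg-5, mesp-1, cyc-2.1, usp-4, kap-1 and pigq-1. The other two did not. The peak between cogc-2, a Golgi complex gene, and klp-18, a kinesin gene of the acentrosomal meiotic spindle (IV:7039408-7039763), had values of 18.2 pooled, 18.7 and 12.5. The peak at T24B8.3 (II:9060256-9060611) had 16.7 pooled, 17.8 and 10.3. Leaving out the 21 members changed no call given here.

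Summits of the replicates lay farther apart at the members than at stronger peaks. The median distance between the summits of the overlapping replicate peaks was 104 bp, against 34 bp at the thresholded promoter peaks. The replicate summits stood within 50 bp of each other at 146 of 525 members (27.8%) and at 235 of 359 thresholded promoter peaks (65.5%). These are descriptions, because the rule used the replicate peaks.

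Of the autosomal promoter peaks past rank 1000 and up to rank 3000, 62.9% were found in both replicates, and of the 931 autosomal peaks in those ranks outside promoter windows 515 were (55.3%). The share was 71.8% up to rank 1500, 66.5% from there to rank 2000, 52.9% to rank 2500 and 58.2% to rank 3000. Of the 310 promoter peaks of these ranks that were not in both, 255 were overlapped in replicate 1 alone, 48 in replicate 2 alone and 7 in neither. The list of replicate 1 held 30000 peaks and that of replicate 2 held 18226. Asking for replicate 1 alone gave 780 of 835 (93.4%), and asking for replicate 2 alone gave 573 (68.6%).

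The promoter window of the rule limits the distance to a start, so these values are read as a description. A test of them was run among the 15 between peak classes, and it is not used as support. A start lay within 200 bp of 241 of 525 member summits (45.9%, 95% exact interval 41.6 to 50.3) and of 205 of 359 thresholded ones (57.1%, 51.8 to 62.3). Within 100 bp the counts were 129 of 525 and 99 of 359. With the promoter window cut to 500 bp upstream and 100 bp downstream, a start lay within 200 bp at 215 of 375 members and 200 of 322 thresholded promoter peaks. The median distance to the nearest start was 222 bp for the members and 180 bp for the thresholded promoter peaks. Upstream of the nearest start lay 404 member summits (76.95%) and 324 thresholded ones (90.3%), while 1000 of the 1301 positions of the window (76.9%) are upstream. The nearest start, of any protein-coding transcript, lay outside that window at 26 members, whose summits stood farther downstream of it. It can also belong to another gene than the one whose window was met. The share of window positions is therefore no expected value for the share of summits upstream of the nearest start.

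**Figure D2:**
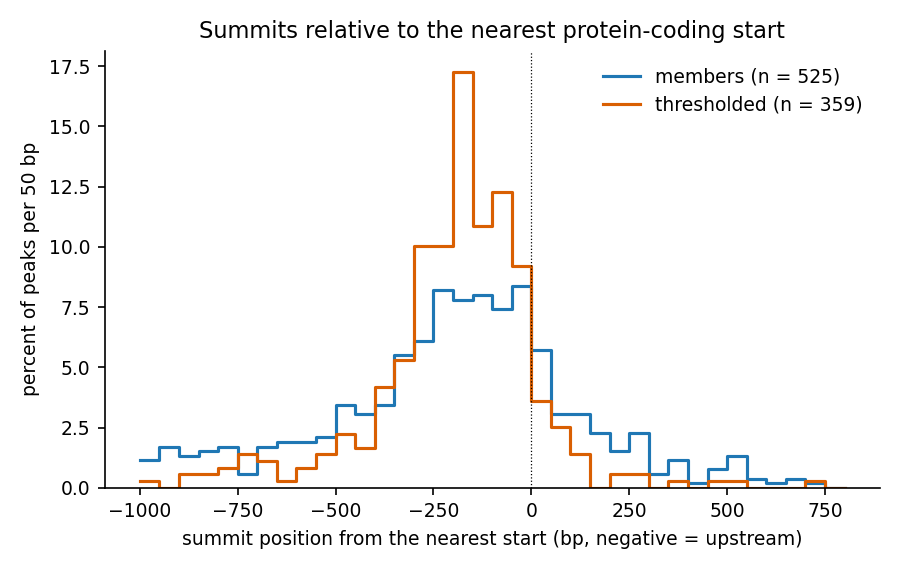
Position of each summit from the nearest protein-coding start (x axis, bp, negative is upstream, dotted line at the start) against the percent of peaks per 50 bp (y axis), for the 525 members and the 359 thresholded promoter peaks. The members have 45.9% within 200 bp of a start against 57.1%.

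By annotation, 306 member summits were intergenic (58.3%, 95% exact interval 53.9 to 62.5), 93 lay in an intron, 65 in a UTR, 59 in a coding exon and 2 in another exon. Intergenic summits made up 84.4% (80.2 to 88.0) of the thresholded promoter peaks and 53.9% (48.1 to 59.5) of the peaks of the same ranks that were not in both replicates. Chromosomes I, III and IV held 116, 115 and 115 members, chromosome II held 97 and chromosome V held 82. Chromosome V had 15.6% of the members, 16.7% of the thresholded promoter peaks and 28.96% of the autosomal protein-coding genes. 

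Member peaks had genes on both strands in the promoter window less often than thresholded promoter peaks did. The promoter window held 1 gene at 385 members, 2 genes at 134 and more at 6. Genes on both strands were present at 121 members (23.05%, 95% exact interval 19.5 to 26.9) and at 137 thresholded promoter peaks (38.2%, 33.11 to 43.4). This gave an odds ratio of 0.486 with a 95% interval of 0.358 to 0.659 (Fisher's exact test over a family of 15 tests, adjusted p = 2.8e-05). The genes were counted in the rule's own promoter window, which was the same for every class, and the shares depend on its width. The odds ratio was 0.484 with the window of 2000 to 500 bp and 0.512 with that of 500 to 100 bp. Among peaks of the same ranks not in both replicates the share was 18.4% (odds ratio 1.33, 0.924 to 1.93, exact test, adjusted p = 0.249). Past rank 3000 and up to rank 6000, among peaks found in both replicates, it was 18.06% (1.36, 0.978 to 1.90, exact test, adjusted p = 0.197). Neither passed, and both intervals include an odds ratio of 1. These p-values, and all that follow between peak classes or between summit and flank, cover the counting of peaks only. Peaks of 1 experiment are not replicates of a condition.

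An E2F-type string was present within 100 bp of 43 member summits (8.19%, 95% exact interval 5.99 to 10.9). The share was 62 of 359 (17.3%, 13.5 to 21.6) at the thresholded promoter peaks, an odds ratio of 0.428 with a 95% interval of 0.275 to 0.660 (exact test, adjusted p = 2.6e-04). With only TTTCCCGC and TTTGGCGC the shares were 27 of 525 and 30 of 359, and the call ended (odds ratio 0.595, exact test, adjusted p = 0.180). Peaks past the 550 thresholded ones and up to rank 1000, which lie in between, held a string at 30 of 226 (13.3%). Against the peaks of the same ranks that were not in both replicates, with 23 of 310 (7.42%), the odds ratio was 1.11 (0.641 to 1.98, exact test, adjusted p = 0.886). Against the peaks between ranks 3000 and 6000, with 25 of 432 (5.79%), it was 1.45 (0.850 to 2.53, exact test, adjusted p = 0.289). No difference in E2F-type strings was detectable between peaks of the member ranks that were in both replicates and those that were not. Among the members themselves the share was 9.25% up to rank 1500, 9.49% from there to rank 2000, 8.33% to rank 2500 and 4.67% to rank 3000.

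Within the member promoters the strings gathered at the summit, which was not particular to the members. The windows of 200 bp centred on the summit held a string at 43 members and the windows centred 400 bp farther upstream of the nearest start at 13 (2.48%). A string stood at the summit alone in 41 members and in the flank alone in 11 (exact McNemar test, adjusted p = 7.2e-05 over 2 tests). With the flank 400 bp downstream instead, the counts were 41 and 18, a ratio of 2.28 in place of 3.73 (exact test, adjusted p = 0.0076). The median GC content was 37.5% in the summit windows and 36.5% in the flanks. Of the 47 strings, 32 were centred within 50 bp of the summit, and their median distance from it was 37.5 bp. TTTCCCGC occurred 15 times, TTTGGCGC 14 times, TTTCGCGC 12 times and TTTGCCGC 6 times. In windows of the same length centred 160 bp upstream of the starts of all 17242 autosomal protein-coding genes the share was 3.71% at a median GC of 33.5%.

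**Figure D3:**
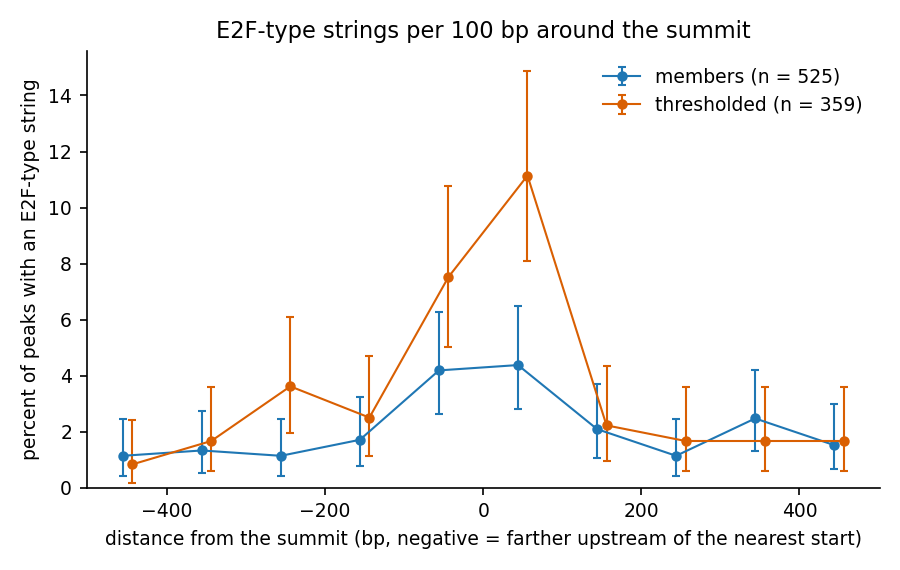
Percent of peaks with an E2F-type string on either strand (y axis, bars are 95% exact intervals) in windows of 100 bp by distance from the summit (x axis, bp, negative is farther upstream of the nearest start), for the 525 members and the 359 thresholded promoter peaks. The members reach 4.19% and 4.38% on either side of the summit, against 7.52% and 11.1% for the thresholded peaks.

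The CHR-like strings TTCGAA and TTTGAA differed less between summit and flank, and the difference did not pass the threshold. They stood in 269 member windows (51.2%, 95% exact interval 46.9 to 55.6) and in 240 flank windows (45.7%), with 142 members holding one at the summit alone and 113 in the flank alone (exact McNemar test, adjusted p = 0.0793). Of all promoters 56.7% held one. At the thresholded promoter peaks the share was 66.3% (61.1 to 71.2), an odds ratio of 0.535 for the members (0.400 to 0.712, exact test, adjusted p = 6.9e-05). The peaks of the same ranks not in both replicates, at 56.1% (odds ratio 0.821, 0.613 to 1.0997), and those between ranks 3000 and 6000, at 53.01% (0.932, 0.716 to 1.21), did not differ from the members past the threshold (Fisher's exact test, adjusted p = 0.289 and 0.823). Both strings together stood at 30 members (5.71%) and at 47 thresholded promoter peaks (13.1%).

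Other strings were counted on both strands as a description. The GATA-type string CTTATC stood in 5.90% of member windows, 3.62% of thresholded ones and 11.05% of all promoters. GAGAGAGA stood in 4.57%, 4.18% and 2.45% in that order, CCGCCC in 6.86%, 7.52% and 5.12%, the E-box CACGTG in 3.81%, 3.62% and 3.89%, and a run of 10 T in 4.38%, 5.01% and 6.22%. In the members' own upstream flanks CCGCCC stood in 3.24%, GAGAGAGA in 2.67%, CACGTG in 4.95%, CTTATC in 32 members and the run of T in 21. Summit and flank were not tested against each other for these 5 strings. A gene for a snoRNA, snRNA or tRNA lay within 500 bp of 27 members (5.14%), with 13, 8 and 6 in that order. The share was 5.57% at thresholded promoter peaks (odds ratio 0.919, 0.488 to 1.76, exact test, adjusted p = 0.886). It was 2.58% at peaks of the same ranks not in both replicates (2.05, 0.889 to 5.28, adjusted p = 0.249) and 3.24% between ranks 3000 and 6000 (1.62, 0.807 to 3.38, adjusted p = 0.298), neither past the threshold by the exact test.

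**Figure D4:**
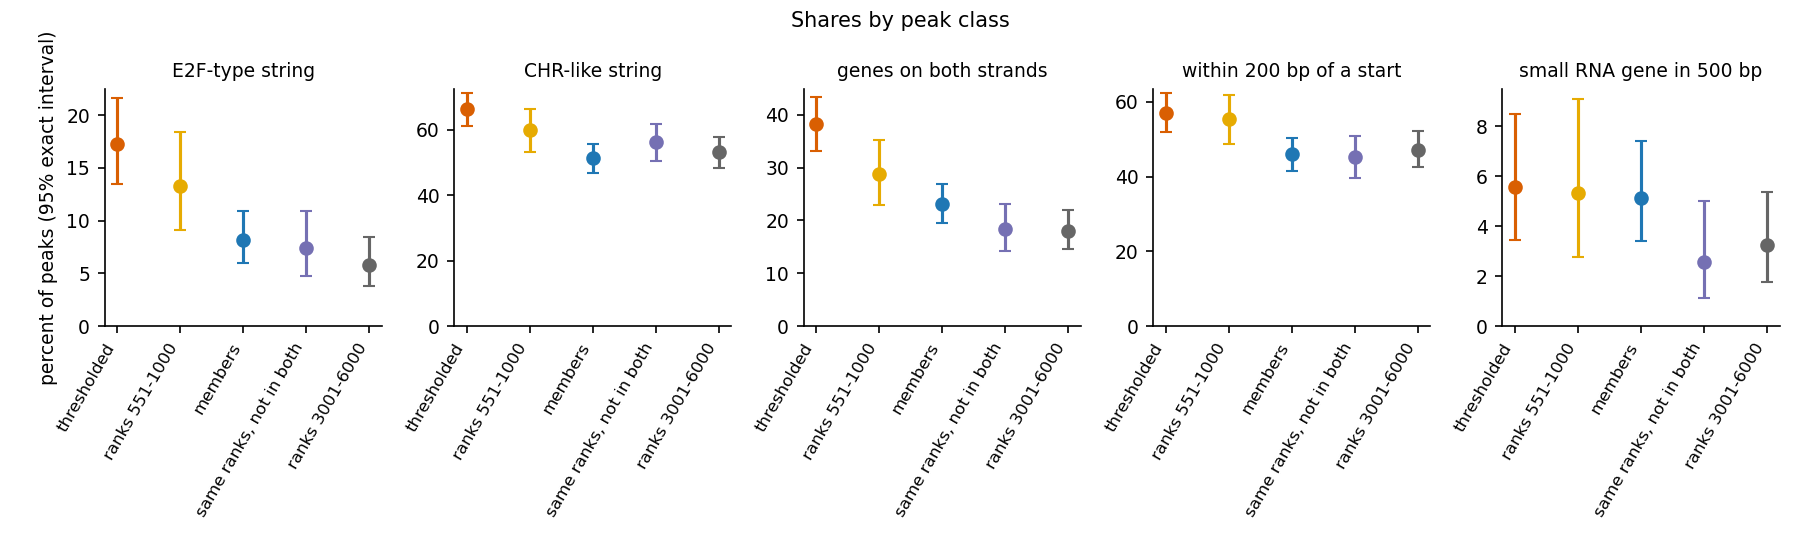
Percent of peaks (y axis of each panel, from 0, with 95% exact intervals) that held an E2F-type string, a CHR-like string, genes on both strands, a start within 200 bp or a small RNA gene within 500 bp, in the 359 thresholded promoter peaks, the 226 between ranks 550 and 1000, the 525 members, the 310 of the same ranks not in both replicates and the 432 between ranks 3000 and 6000. The first 4 shares are lower in the members than in the thresholded peaks, at 8.19% against 17.3% for the E2F-type strings.

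The member peaks fell in the promoter windows of 652 of the 17242 autosomal protein-coding genes (3.78%). Of these genes, 599 had neither a thresholded summit nor one between ranks 550 and 1000, 27 had a thresholded summit as well, and 17 had more than 1 member peak. The same windows held a thresholded summit, whether or not both replicates' lists overlapped it, at 3.09% of the genes and one between ranks 550 and 1000 at 2.00%. The following counts of listed genes are read against these shares and were not tested, because lists and members were chosen with results of these data known. A peak with several genes in its window counts for each of them.

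The highest member stood between C03C10.7 and rnr-2, which encodes the small subunit of ribonucleotide reductase, the enzyme that makes deoxynucleotides (III:4095544-4095899). Its signal was 18.9 pooled, 13.9 in replicate 1 and 8.66 in replicate 2, and its summit lay 323 bp from C03C10.7 and 801 bp from rnr-2. It stood at rank 1060 in replicate 1 and 794 in replicate 2. H06I04.3 followed with values of 18.9, 20.7 and 2.04, at rank 417 in replicate 1 and near the bottom of the list in replicate 2, at rank 17847. The next was csc-1, a gene of the chromosomal passenger complex, which shares its peak with fbxc-23 (II:13596582-13596937, values 18.9, 15.8 and 3.42). The other 7 of the 10 highest lay at W06H8.6, at eri-5 of the small RNA pathways, at rmh-1, a partner of the BLM helicase in meiosis, at Y54E10BR.2 with rpb-7 of RNA polymerase II, at ciao-2B, at cdc-73 of the PAF1 complex and at ssup-72, a phosphatase of the polymerase tail. Their pooled values ran from 18.7 to 18.9.

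DNA replication genes were present in both the thresholded and the weaker range. Of 41 listed genes, 7 had a member peak (17.1%), 9 a thresholded one (21.95%) and 6 had a member peak and no stronger one. After rnr-2 came rnr-1, the large subunit of the reductase, with a summit 114 bp upstream of its start and values of 16.23 pooled, 8.78 in replicate 1 and 2.58 in replicate 2. Next were pole-1, the leading-strand polymerase (15.4, 13.2 and 4.23), and mcm-5 of the replicative helicase (14.1, 10.1 and 3.46). All 4 of these peaks held an E2F-type string. The others held none: div-1, a subunit of polymerase alpha-primase, rfc-4 of the clamp loader, which also had a thresholded peak, and orc-3 of the origin complex. The rfc-4 start lay 936 bp from the member summit.

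Of 52 mitosis and kinetochore genes, 12 had a member peak (23.1%), 13 a thresholded one (25%), and none of the 12 had a stronger peak. Besides csc-1 these were klp-18, zyg-9, which promotes microtubule growth (II:8456708-8457063, values 15.9, 7.05 and 4.62, in the window shared with F22B5.6), and the kinetochore genes kbp-3 (15.2, 10.03 and 7.33), him-10, ndc-80 and czw-1. The centralspindlin genes zen-4 (15.1, 12.95 and 2.17) and cyk-4 (13.6, 7.70 and 3.13) each had one, as did the centriole gene sas-6, the depolymerising kinesin gene klp-7 and hcp-6. Of these 12 peaks, 10 were shared with a neighbouring gene, among them that of him-10 with polq-1. Those of csc-1, zyg-9 and him-10 held an E2F-type string, and the others did not. The klp-7 summit lay 992 bp from its start.

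Condensin and cohesin genes had a member peak at 6 of 22 (27.3%) and a thresholded one at 4 (18.2%). The members were kle-2 of condensin II (17.97 pooled, 13.8 and 4.39), coh-4, a meiotic kleisin (17.6, 8.82 and 7.65), smc-3, a core cohesin subunit (17.4, 10.4 and 6.77), and hcp-6, another condensin II subunit (16.45, 10.9 and 4.22), then the separase gene sep-1 and dpy-28. The dpy-28 peak was among the lowest in both replicates, at ranks 19733 and 17420. All the other peaks of this list were shared with a neighbouring gene. The kle-2 start lay 674 bp from its summit and the sep-1 start 428 bp. None of the 6 held an E2F-type string.

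DNA damage response and repair was the list in which member peaks exceeded thresholded ones by the largest count, at 11 of 45 (24.4%) against 4 (8.89%). The genes came from many repair routes. The highest were smc-6 of the SMC5/6 complex (16.43 pooled, 8.16 in replicate 1 and 5.54 in replicate 2), xpa-1 of nucleotide excision repair (15.2, 11.6 and 3.85), atm-1, the checkpoint kinase (15.1, 4.96 and 10.04), and the nuclease gene xpf-1 (14.9, 8.87 and 2.48). The others were msh-6, smc-5, polq-1, mus-81, rev-1, rad-51 and exo-3. Of these, rad-51 also had a peak between ranks 550 and 1000, and polq-1 held the only E2F-type string of the 11.

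Meiosis had 6 of 28 genes with a member peak (21.4%) and 1 with a thresholded one (3.57%). The highest was rmh-1 (18.8 pooled, 8.23 in replicate 1 and 9.57 in replicate 2), whose start lay 646 bp from the summit, while the nearest start, 381 bp away, was that of cey-3. The others were cosa-1, a crossover factor (16.53, 13.8 and 3.68), syp-4 of the synaptonemal complex (15.6, 18.3 and 4.05), rad-51, the strand exchange recombinase (12.6, 12.4 and 6.44), spo-11, which makes the double-strand breaks, and him-17. The spo-11 peak was shared with swsn-4, a chromatin remodelling gene whose start was nearer. None of the 6 held an E2F-type string.

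Other germline lists were closer to the share of thresholded genes. Of 36 germ granule and germline RNA regulators, 4 had a member peak (11.1%) and 7 a thresholded one. They were car-1, an RNA-binding protein of germ granules (17.2 pooled, 11.2 and 3.26), deps-1 (14.3, 9.54 and 5.45), pie-1, a repressor of transcription in germline precursors (14.1, 9.51 and 6.49), and puf-11, a PUF repressor (13.8, 12.3 and 3.05). Small RNA pathways had 5 of 36 (13.9%) and 4 thresholded, with eri-5 (18.9, 17.8 and 6.88), mut-2, a nucleotidyltransferase (15.7, 9.47 and 8.62), rde-10 (14.3, 6.94 and 9.29), the Argonaute gene wago-4 (13.9, 7.52 and 5.82) and rde-11. Chromatin genes had 5 of 40 in each range (12.5%). The member peaks of ash-2, a COMPASS subunit (18.3, 8.18 and 15.9), and epc-1, of a histone acetyltransferase complex (18.1, 5.42 and 15.6), stood at ranks 160 and 169 in replicate 2 and 4649 and 12373 in replicate 1.

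Nuclear pore and transport genes had 6 of 35 with a member peak (17.1%) and 5 with a thresholded one. The peak between dkc-1 and ran-1, the GTPase that directs nuclear transport, had values of 18.1 pooled, 5.73 in replicate 1 and 13.5 in replicate 2. That of npp-22, a membrane nucleoporin, stood at pooled rank 1432 with replicate values of 12.8 and 5.32 and held 2 strings. The npp-22 summit lay in an annotated UTR, and the stretch of sequence around each string overlapped one. The others were imb-1, an importin (pooled 15.05), npp-12 (13.2, 10.4 and 2.43), the exportin gene xpo-1 and npp-9. Aminoacyl tRNA synthetases, which charge tRNAs, had 4 of 20 with a member peak (20%) and none with a thresholded one: gars-1 (17.2, 12.3 and 4.67), fars-3 (15.1, 17.7 and 2.54), tars-1 (14.9, 8.87 and 2.48) and qars-1 (13.8, 6.12 and 6.61). The tars-1 peak is the one shared with xpf-1.

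Several lists held more thresholded than member peaks. Large-subunit ribosomal protein genes had 14 of 45 with a thresholded peak (31.1%) and 3 with a member peak (6.67%), rpl-1, rpl-6 and rpl-21. Small-subunit genes had 8 of 31 thresholded (25.8%) and 6 with a member peak (19.4%), led by rps-24 (18.5 pooled, 7.08 and 11.05), rps-23 (17.2, 9.53 and 6.64), rps-8 (15.6, 13.3 and 10.3) and rps-21 (14.7, 12.96 and 2.50). Chaperonin and heat shock genes had 9 of 26 thresholded (34.6%) and 3 with a member peak: hsp-6 (17.02, 10.4 and 7.28), hsp-1 and cct-6 (12.5, 13.4 and 3.06). Respiratory chain genes had 7 of 27 and 3, namely atp-2 (16.6, 8.65 and 4.78), cox-5B and cyc-2.1, of which cox-5B and cyc-2.1 had a thresholded peak as well. Spliceosome and SR genes had 8 of 41 thresholded and 4 with a member peak (skp-1, rsp-3, rsp-7 and rsp-8). Translation factors had 6 of 33 and 4 (eif-3.B, ife-1, ife-3 and erfa-1), and tubulins had 3 of 11 and 1, tba-1, through the peak shared with cox-5B.

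Of the proteasome genes 3 of 32 had a member peak (rpn-10, rpn-2 and pbs-5) and 3 a thresholded one, and of the vacuolar genes 2 of 39 (vha-2 and vha-8) and 4. The anaphase-promoting complex list had 1 of 13, apc-17. Histone genes had 5 of 46 through 4 peaks, in the windows of his-48 (16.7 pooled, 16.35 and 2.74), his-58 (16.7, 4.75 and 4.84), his-62 (12.9, 4.68 and 3.82) and the pair his-59 and his-60 (12.8, 6.65 and 10.1). Most summits stood far from the starts, 967 bp from his-48, 863 bp from his-58 and 862 bp from his-62. The shared summit lay 535 bp from his-59 and 278 bp from his-60. Histone genes are near-identical copies, and how multiply mapped reads were treated is not given in the sources used here. A member peak with an E2F-type string also stood at cdl-1, whose product binds histone pre-mRNAs and is needed to process them (II:10785123-10785478, values 18.2, 14.7 and 4.98).

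Core cell cycle regulators had no member peak, and tissue marker genes had 1. None of the 8 DREAM complex genes had a member peak and 5 had a thresholded one (62.5%). None of the 27 cyclins, kinases and cell cycle regulators had a member peak, with 1 thresholded and 3 between ranks 550 and 1000. Together these are 0 of 35, and the 95% exact interval reaches 10.003%, above the 3.78% of all genes. Muscle, intestine, neuron, epidermis and major sperm protein genes had 1 of 90 (1.11%, 95% exact interval 0.0281 to 6.04), namely rgef-1, a neuronal gene (17.7 pooled, 11.7 in replicate 1 and 7.65 in replicate 2). That interval includes 3.78% as well, so a lower share was not shown. The 12 apoptosis core genes had none.

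**Figure D5:**
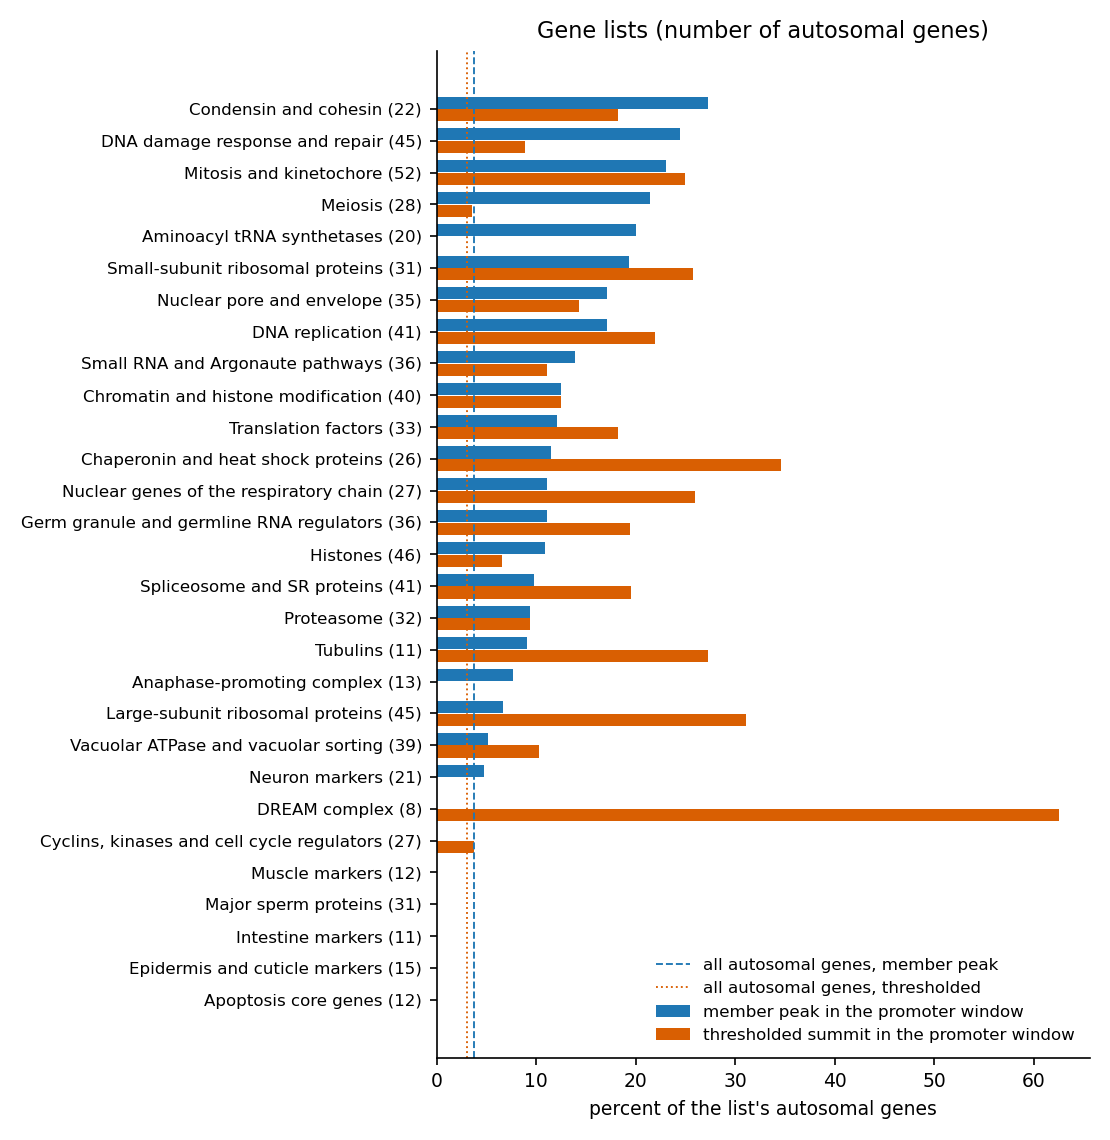
Percent of the autosomal genes of each list (number in parentheses on the y axis) with a member peak or a thresholded summit in the promoter window (x axis), with dashed and dotted lines at 3.78% and 3.09% for all genes. Condensin and cohesin, repair, mitosis and meiosis lead by member peaks at 27.3%, 24.4%, 23.1% and 21.4%, and the DREAM list has 62.5% thresholded and none among members.

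Among the 12 highest members with an E2F-type string, 7 have not yet been described. The highest of these lay at F34D10.4 (III:3736701-3737056, values 18.5 pooled, 11.8 and 10.7). Its summit stood in an intron, and the stretch of sequence around its string overlapped a coding exon. After it came puf-3, a PUF repressor of the oocyte (IV:13512163-13512518, values 18.3, 9.49 and 11.05), and smo-1, the worm SUMO (18.2, 12.4 and 7.12). Further ones lay at mtg-1 (17.4, 17.7 and 3.17), between C39E9.12 and prcc-1 (17.2, 10.5 and 4.29) and at F35C5.12 (17.1, 13.2 and 4.97). The last was at ceh-92, a homeobox gene, with Y66D12A.6 (16.8, 8.92 and 2.17).

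More than 1 string stood at 4 members: npp-22, wdr-62 (15.96 pooled, 7.54 and 8.44), the zyg-9 peak and cerk-1 (14.4, 7.20 and 2.34). At wdr-62, zyg-9 and cerk-1 the strings overlapped on opposite strands. At npp-22 they were separate.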

How the data were processed

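ChIP-seq peak lists of 2 biological replicates were used as deposited, 8 lists in all, 4 on each of ce11 and ce10. Per the deposited text notes, alignments and a control library gave the replicate and pooled lists, which gave the thresholded one. Aligner, peak caller and cutoff were not given in the sources used here. Each peak's signal was used as the authors deposited it, on an unstated scale, and was compared only within a list. The deposited −log10 q value was not used to rank.

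Ranks were taken over the whole pooled list. Starts and annotation are those of WBcel235, Ensembl release 115, and sequence is the RefSeq genome of that build. Where several replicate peaks overlapped a member, the highest was taken. Classes were compared by two-sided Fisher's exact tests (15) and summit with flank windows by exact McNemar tests (2), each family adjusted by Benjamini-Hochberg with a threshold of 0.05. Intervals are exact (Clopper-Pearson) and cover counting only. In the 29 gene lists 13 symbols matched no protein-coding gene on any chromosome by the names and synonyms used. Matched genes outside the autosomes were left out of the counts. Named genes are the 10 highest members, up to 4 per list, the 10 best in both replicates, the 12 highest with an E2F-type string and members with 2 or more strings. One gene that this rule names is not reported here. List members beyond 4 were named after their values were seen. Members, lists and tests were chosen with earlier results of these data known. Code was tested on simulated data, with Python 3.11.15, numpy 2.4.6, pandas 2.3.3, scipy 1.17.1 and matplotlib 3.10.9.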

Additional observations from a re-analysis of the deposited data

How the results depend on the processing

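The 17 tests were repeated under other overlap rules, single replicates, promoter windows, rank ranges, string windows and distances. Of 66 repeats of the 5 called tests 63 kept the call and its direction, and of 155 repeats of the other tests 151 stayed without a call. The 5 include the test for a near start, whose values the rule's window limits, so its repeats are no support. Odds ratios of members against thresholded promoter peaks lost the call at 0.595 for E2F-type strings with only 2 strings, and for a near start, which the rule's window limits, from 0.638 to 0.856 with 100 bp and at 0.820 with the window of 500 to 100 bp. Calls were gained for both strands against the same ranks with the window of 2000 to 500 bp (odds ratio 1.43, exact test, adjusted p = 0.0436) and for CHR-like strings at the summit against the flank up to rank 2000 (ratio 1.48, exact test, adjusted p = 0.0215). Past rank 2000 that ratio was 1.00. With 1 replicate asked for at a time, the odds ratios against peaks between ranks 3000 and 6000 ran from 1.52 to 1.73 for E2F-type strings and from 1.43 to 1.48 for both strands, both called with replicate 1 alone. They ran from 0.968 to 1.08 for a near start, and for both strands against the same ranks from 0.780 to 1.51. Uncalled odds ratios also crossed 1 for E2F-type strings against the same ranks (0.982 with 150 bp windows, 0.729 up to rank 2000, 0.985 with the 500 to 100 bp window), and rose to 1.94 past rank 2000 and 1.74 with 50 bp windows, both uncalled. With only the 10000 highest peaks per replicate they did so for a near start against the same ranks (0.977) and for small RNA genes against peaks between ranks 3000 and 6000 (0.932). For a near start against them the value was 1.01 with an overlap of 0.5 of the interval and 1.06 with the 2000 to 500 bp window. The share found in both replicates was 43.4% with the 10000 highest peaks, 51.9% with the overlap of 0.5, 69.4% up to rank 2000, 55.4% past it, and 68.6% to 93.4% with 1 replicate. Members with both strands were 29.3% and 18.9% in the wider and narrower windows. Without the promoter window the share found in both was 58.9%, and 61.6% on the ce10 lists. The cause of these changes was not tested. Leaving out members within 500 bp of a stronger summit, chosen after seeing the data, kept every call. No paired analysis was possible because the data hold 1 group. Unknown depth, 2 replicates and an unused control limit all values.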
